A study of Manis javanica with 3 samples.

Results

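The library labelled small intestine of a Malayan pangolin (Manis javanica, an ant- and termite-eating mammal without teeth) was compared gene by gene with the salivary gland and liver libraries of the same series. All 3 libraries came from 1 adult female, a wild animal that died during rescue and was dissected directly after death, and each tissue gave 1 library of poly-T selected RNA. There is no replicate of any tissue, so no difference given here has a replicate check and no test between tissues was made. All 24220 genes of the 3 libraries were considered, and the 18037 with an estimated count of at least 10 fragments in any library were compared. The other 6183 genes stayed out of every count of genes tested.

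The level of a gene is given as FPKM, the fragments on a gene per kilobase of transcript, scaled to equal numbers of mapped fragments, so that levels of different genes can be set beside each other. For each gene the score is log2((FPKM in the library labelled small intestine + 1) / (the higher FPKM of the other 2 libraries + 1)). A score of 1 stands for a value 2 times the higher of the other 2 on this scale, and a score of 3 for 8 times. Because 1 is added to both values, the score understates the difference of genes with low FPKM. Genes with a score of at least 1 are called higher and genes with a score of -1 or less are called lower.

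In mammals the glandular stomach, the small intestine and the gut lining that is exposed to abrasion are made by different epithelia. The glandular stomach has surface mucous (pit) cells that make a trefoil peptide, gastrokines and a gel-forming mucin, mucous neck cells, parietal cells that secrete acid with the proton-potassium pump, and chief cells that make pepsinogen. The small intestine is lined mainly by enterocytes, which carry digestive hydrolases, nutrient transporters and fatty acid binding proteins, and by goblet cells. Stratified squamous epithelium, as in the mouth, the oesophagus and the non-glandular stomach of many mammals, is built of layers of keratinocytes, and a keratinised form of it ends in a horny layer.

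The label was checked against these cell types before anything else. Of the enterocyte list (50 genes), 18 were at a count of 0 in the library labelled small intestine and only 3 reached an FPKM of 10. FABP2 and LCT, the intestinal fatty acid binding protein and lactase, were at 0 counts, as were MEP1A and MEP1B (the meprin subunits of the brush border) and TMPRSS15, the enteropeptidase that activates trypsinogen. Sucrase-isomaltase (SI) had 2 counts, intestinal alkaline phosphatase (ALPI) 4 counts, and the homeobox factors CDX1 and ISX of the intestine had 0. A count of 0 in this library allows a share of up to 2.95e-05% of its counts. By contrast, pepsin A and the proton-pump subunits ATP4A and ATP4B, defining products of chief and parietal cells, had FPKM of 94138, 1073 and 652. CHIA and BPIFB1, the other very abundant transcripts, were placed in the chief and neck lists with their levels known, and their membership is no support for a cell type. The label therefore went against the markers, and the library is called by its label throughout, without another organ name. In bulk RNA, fewer cells of a type and less RNA per cell cannot be told apart.

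Of the genes tested, 1540 (8.54%) were higher in the library labelled small intestine, 220 of them (1.22% of the genes tested) with a score of at least 3, and 4361 (24.2%) were lower. Because the score uses the higher of the other 2 libraries, a low score is easier to reach than a high one. The median score over all genes tested was -0.38, with quartiles of -0.97 and 0.17 and a range from -14.09 to 10.34. Among the 1540 higher genes the higher of the other 2 libraries was the salivary gland for 905 and the liver for 500, while 135 had a count of 0 in both. Together the 1540 genes held 49.7% of the FPKM and 51.9% of the counts of the library labelled small intestine, against 2.44% in salivary glands and 1.47% in liver. The 220 genes with a score of at least 3 held 45.6% of the FPKM. Most of the share that the higher genes held was thus carried by the smaller set. As few as 15 genes made up 50% of the FPKM of this library, against 37 for salivary glands and 100 for liver. The split between higher and lower depended on how libraries were scaled: 26.1% of the called genes were higher with FPKM, 39.6% with TMM factors and 39.3% with DESeq2 size factors, and these factors shifted the median score from -0.38 to -0.11 for both, while TPM shifted it to -0.60. Against 1 library at a time, 59.6% of the called genes were higher than in the salivary gland library and 49.0% higher than in the liver library.

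**Figure D1:**
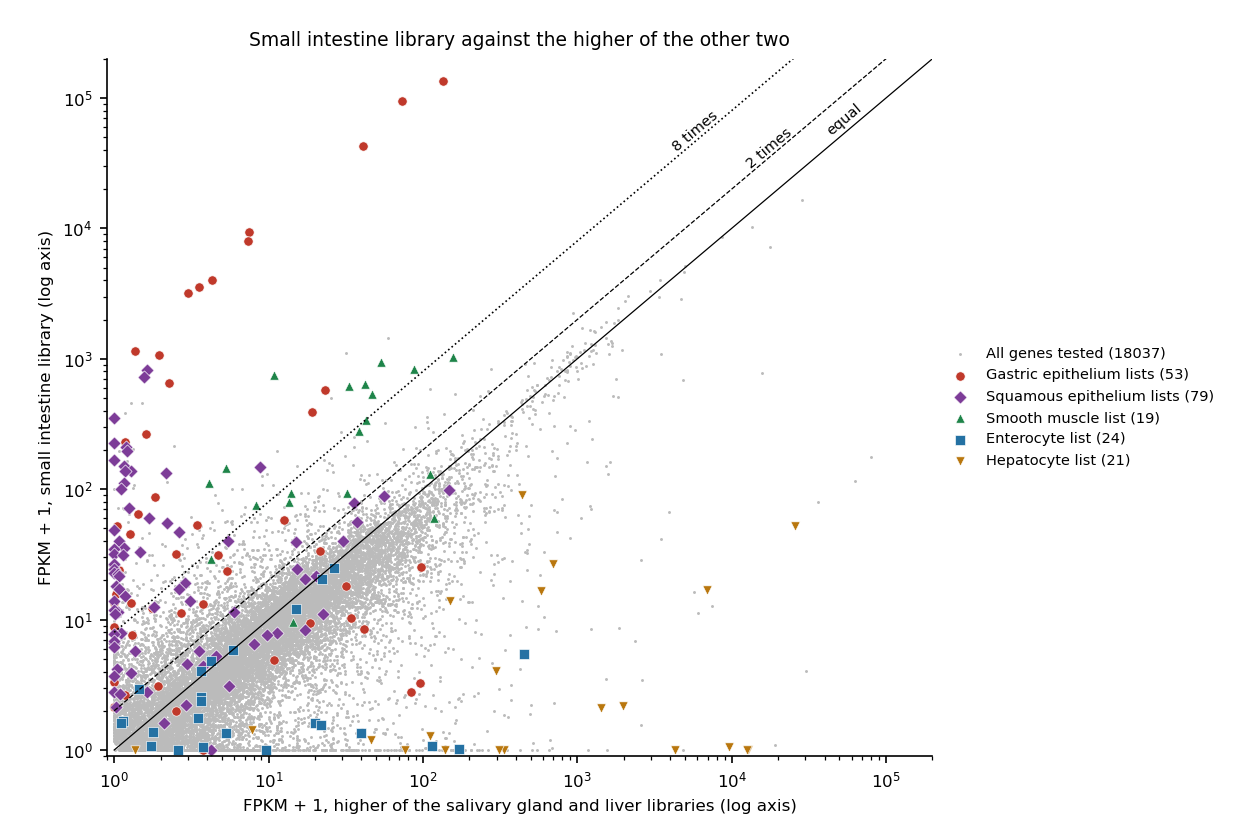
FPKM + 1 of the 18037 genes tested in the library labelled small intestine (vertical, log axis) against the higher FPKM + 1 of the salivary gland and liver libraries (horizontal, log axis), 1 library per tissue. Lines mark equal values and ratios of 2 and 8. The gastric, squamous and smooth muscle members lie mostly above the line for a ratio of 2. The enterocyte and hepatocyte members lie mostly near or below the line of equal values.

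The genes were sorted by lists of cell type markers. Counts in this paragraph use the 30 lists first drawn up, without the 3 added after values were seen, and a gene counts in each class that lists it. These 30 lists were also chosen with earlier results of these data known, and matching by product name was set after values were seen. The counts are thus a description and not independent of the values. Of the 25 genes with the highest score, 13 were in lists of gastric epithelial cells (chief, parietal, pit, neck, endocrine and tuft cells), 4 in the stratified squamous list, 1 in the pancreas list and 7 in no list. Of the highest 100, 21 were in lists of gastric epithelial cells, 5 in the squamous list, 6 in lists of smooth muscle, nerve or connective tissue and 63 in no list. The 1 gene among them from lists of the intestinal epithelium was lysozyme C (gene22777), a Paneth cell product. Gastric epithelial cells held 83 genes tested, of which 52 (62.7%) were higher against 8.54% of all genes tested, and 15 were lower. Among 85 genes of smooth muscle, nerve and connective tissue 40 (47.1%) were higher, while 7 of 54 genes of the intestinal epithelium and 7 of 58 genes of blood and immune cells (12.1%) were. Genes in none of these lists made up 1409 of the 1540. Some genes stand in more than 1 list: gastricsin is counted for chief and for neck cells, and lysozyme for neck cells, Paneth cells and macrophages.

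**Figure D2:**
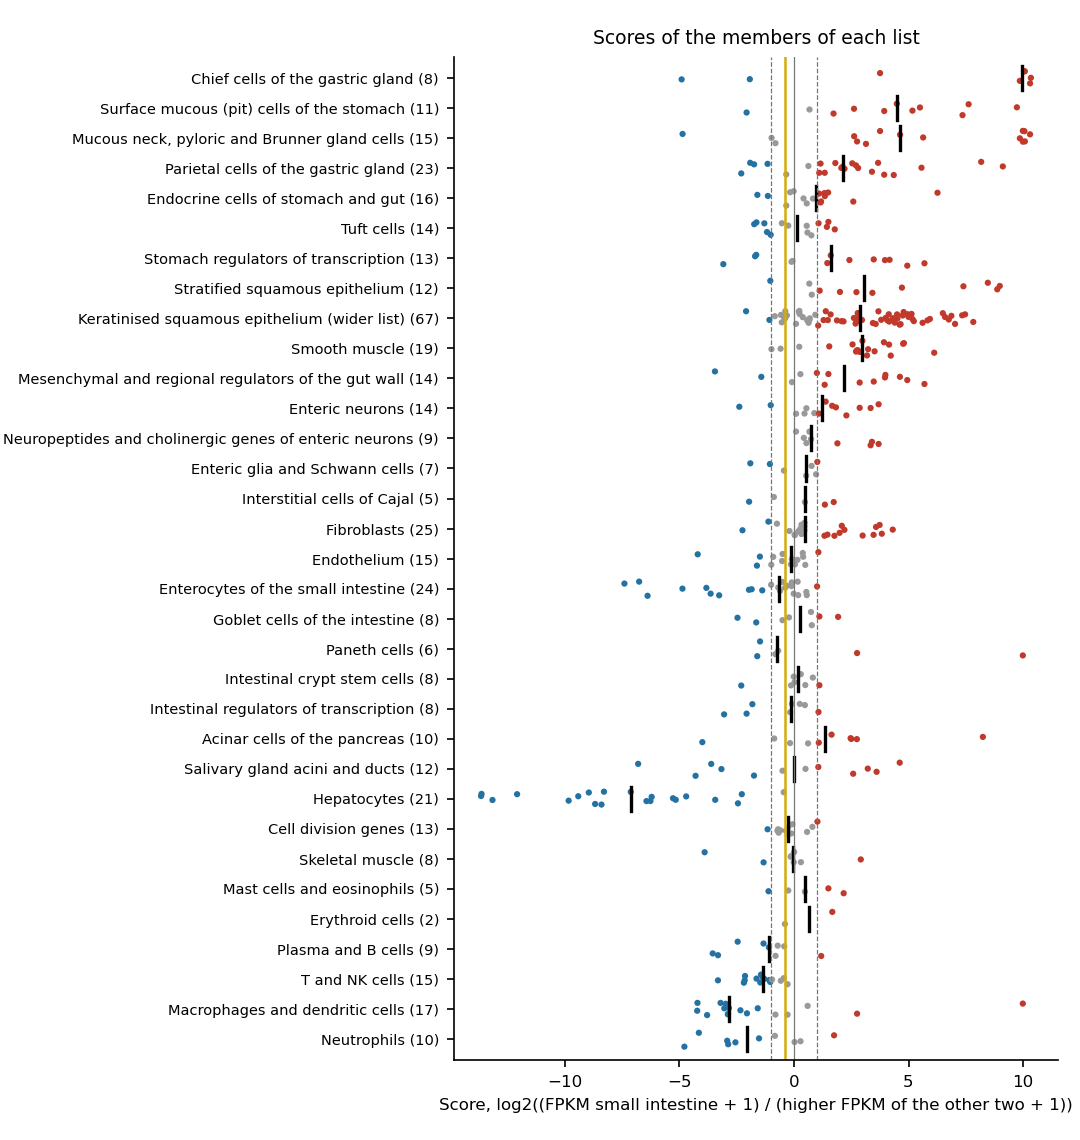
Score (horizontal axis, log2 scale) of each gene tested in 33 lists of cell types and regulators, with the number of genes tested in brackets. Red points have a score of at least 1, blue points of -1 or less and grey points lie between, black bars are medians, the yellow line is the median over all genes tested (-0.38), and a median of at least 1 was reached by 9 of the 30 lists first drawn up and by 2 of the 3 added after values were seen.

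Chief cell genes had the highest median score of these lists, 9.95 over 8 genes tested, of which 6 had a score of at least 3 (1.22% of all genes tested) and 2 were lower. These 6 were pepsin A, 4 gastricsin models and CHIA, which was placed in the list with its level known. The median thus rests on few separate markers. Pepsin A (gene4646), the acid peptidase released as pepsinogen, had an FPKM of 94138 in the library labelled small intestine, against 71.7 in salivary glands and 0 in liver. Gastricsin, or pepsinogen C, was annotated on 4 gene models with FPKM of 9427 (gene7091), 7953 (gene26479), 4014 (gene26766) and 12.5 (a new gene). The models gene26479 and gene26766 lie at positions 14 to 1482 and 132 to 5094 of short scaffolds of their own, so the share of fragments between these copies is uncertain. Gastric lipase (LIPF) and intrinsic factor (GIF), which chief or parietal cells of other mammals secrete for fat digestion and vitamin B12 uptake, were close to absent. LIPF had 5 counts and GIF 9, both under the minimum of 10. Chymosin, the milk-clotting peptidase, had 0 counts in all 3 libraries. A cobalamin binding protein of saliva and other secretions, transcobalamin-1 (TCN1, gene23732), had an FPKM of 1456 in the library labelled small intestine, 58.5 in salivary glands and 1.89 in liver. TCN1 and GIF are neighbours on scaffold NW_016558884.1, at 117820 to 129185 and 99217 to 112462. The 2 lower chief cell genes were BHLHA15, a factor of secretory cells at large, with FPKM of 24.5, 95.9 and 64.8, and the glutamate transporter SLC1A2 with 1.80, 64.3 and 82.6.

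Parietal cell genes numbered 23 tested, of which 17 were higher and 4 lower, with a median score of 2.12. Over all genes tested, 8.54% were higher and 24.2% lower. Both subunits of the gastric proton-potassium pump were high in the library labelled small intestine: the alpha subunit ATP4A (gene10658) had an FPKM of 1073 against 0.941 and 0 in the salivary gland and liver libraries, and the beta subunit ATP4B (gene11562) had 652 against 1.27 and 0. ATP4A held 0.381% of the counts of the library (95% Wilson interval 0.377 to 0.385%). Genes that supply or recycle ions for acid secretion were present at lower levels. Carbonic anhydrase 2 (CA2), which makes protons and bicarbonate from carbon dioxide, had an FPKM of 85.8 against 0.0939 and 0.833. KCNE2 and KCNQ1, the subunits of the potassium channel that returns potassium to the lumen, had 12.5 and 11.2 against at most 0.277 and 0.751. The potassium channel KCNJ15 had 22.6, against 4.42 in the salivary gland library. SLC26A9, an anion channel, had 10.3 against 1.69, and the sodium-proton exchanger SLC9A4 had 5.53 against 0 counts in both other libraries, which makes it at least 93.3-fold higher by count share. The brain-type creatine kinase CKB, an energy buffer of parietal cells and smooth muscle alike, had 392.4 against 9.45 and 18.2. The receptors that switch on acid secretion were low, with FPKM of 1.64 for the histamine receptor HRH2, 1.15 for the gastrin receptor CCKBR and 3.92 for the muscarinic receptor CHRM3. CHRM3 was higher in the salivary gland library, at 9.91, and so were KCNJ16 (9.22 against 33.1) and the chloride importer SLC12A2 (7.51 against 40.8). The anion exchanger SLC4A2, the route of bicarbonate out of the parietal cell, had 32.3 against 20.5 in the liver library and was not called.

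Pit and neck cells are the mucus makers of the glandular stomach. Of 11 pit cell genes tested 9 were higher and 1 lower (median score 4.49), and of 15 neck cell genes tested 12 were higher and 1 lower (median 4.63). These counts stand beside 8.54% higher and 24.2% lower over all genes tested. The neck list includes gastricsin models shared with the chief list and lysozyme models shared with Paneth cells and macrophages. It also includes BPIFB1, placed there with its level known. Trefoil factor 1 (TFF1), a small peptide that pit cells secrete with mucin, had an FPKM of 1148 in the library labelled small intestine against 0.357 and 0, and trefoil factor 2 (TFF2), that of neck cells, had 3223 against 2.03 and 0.503. Both lie on scaffold NW_016527708.1, at 90274 to 93704 and 103134 to 106098. Gastrokine-1 and gastrokine-2 (GKN1 and GKN2), secreted proteins of the pit cell, had 262 and 229.9. Gastrokine-3, the next gene on the same scaffold, had 4 counts. Annexin A10 (ANXA10), a marker of pit cells, had FPKM of 63.5 and 44.4 on 2 gene models, and the surface protein VSIG1 had 23.2. The gel-forming mucins were at lower FPKM than the peptides packed with them, with 14.8 for the pit cell mucin MUC5AC and 51.05 for the neck cell mucin MUC6. MUC6 and MUC2, the latter the mucin of intestinal goblet cells, lie next to each other on scaffold NW_016547477.1, and MUC2 had an FPKM of 1.17. The disulphide isomerase AGR2, which mucus cells use to fold mucins, had 573 against 22.2 and 0.508. The enzyme A4GNT, which adds the terminal sugar of neck cell mucin, was annotated on 2 new gene models with 7.84 and 5.18 and 0 counts elsewhere. Aquaporin-5, a water channel, was lower, with 2.29 against 94.3 in the salivary gland library. Claudin-18 (gene10964), a tight junction protein of the stomach, and S100P (gene22790), a calcium binding protein, stood in none of the lists and were among the 25 highest scores. Claudin-18 had an FPKM of 194.9 against 0.0711 and 0. S100P had 180.1 with 0 counts in both other libraries.

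Some of the genes with the highest FPKM code for defence proteins. BPIFB1 (gene2060), a secreted lipid binding protein of mucosal surfaces, had an FPKM of 136163 in the library labelled small intestine, 133 in salivary glands and 0 in liver. The BPI family member latherin (gene14993) had the opposite order, with 115 against 62922 in the salivary gland library. Lysozyme C, which cleaves bacterial cell walls, was annotated on 3 models tested: gene22777 had 3582 against 2.54 and 0.198, gene17055 had 30.6 against 3.68 and 0, and gene25216 had 17.3 against 14.6 and 30.9. The chitinase CHIA (gene3954), which digests the chitin of insect cuticle in an acid medium, had 43108, with 686 counts in salivary glands and 0 in liver. Chitinase-3-like protein 1, which binds chitin without cutting it, was lower, with 1.74 against 226 in the salivary gland library.

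Product names were also sorted into 24 groups, and the share of the counts that each group held was compared between libraries. Over all genes tested, 8.54% were higher and 24.2% lower. Aspartic peptidases held 11.4% of the counts of the library labelled small intestine, 0.0608% of the salivary gland and 0.1004% of the liver counts. Bactericidal and antimicrobial proteins held 23.3%, 8.06% and 0.0255%, and chitinases, amylases and other glycosidases 6.07%, 0.308% and 0.258%. Pepsin A (gene4646) alone held 9.90%, BPIFB1 (gene2060) 22.96% and CHIA (gene3954) 5.95% of the counts of the library labelled small intestine, so each of these 3 shares came mostly from 1 gene. Of 44 glycosidase genes tested, CHIA was the only one called higher, and 21 were lower, with a group median of -0.98. Mucins, trefoil factors and gastrokines held 0.238% of the counts against 2.48% in the salivary gland library, where a submaxillary mucin-like protein had an FPKM of 5740. Carbonic anhydrases had 7 of 13 genes tested higher and a median of 1.06. Of these, CA9 had an FPKM of 26.6 against 3.22 and 2.42, and CA13, on the same scaffold as CA2, had 3.26 against 0.276 and 0.195. Sodium-proton exchangers 2 and 3 had FPKM of 15.9 and 30.1 against at most 0.231 and 0.675. Cytosolic ribosomal proteins, which all cells make, had 0 of 94 genes tested higher, 4 lower and a median of 0.00. Protein folding in the endoplasmic reticulum was mostly lower, with 23 of 40 genes tested (57.5%, against 24.2% of all genes tested). Still, 3 disulphide isomerases of this group were among its higher genes: PDILT (456 against 0.283 and 0), PDIA2 (113 against 1.08 and 1.21) and AGR2. The PDIA2 model overlaps that of axin-1 on the opposite strand, and counting did not use strand, so their fragments cannot be told apart.

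**Figure D3:**
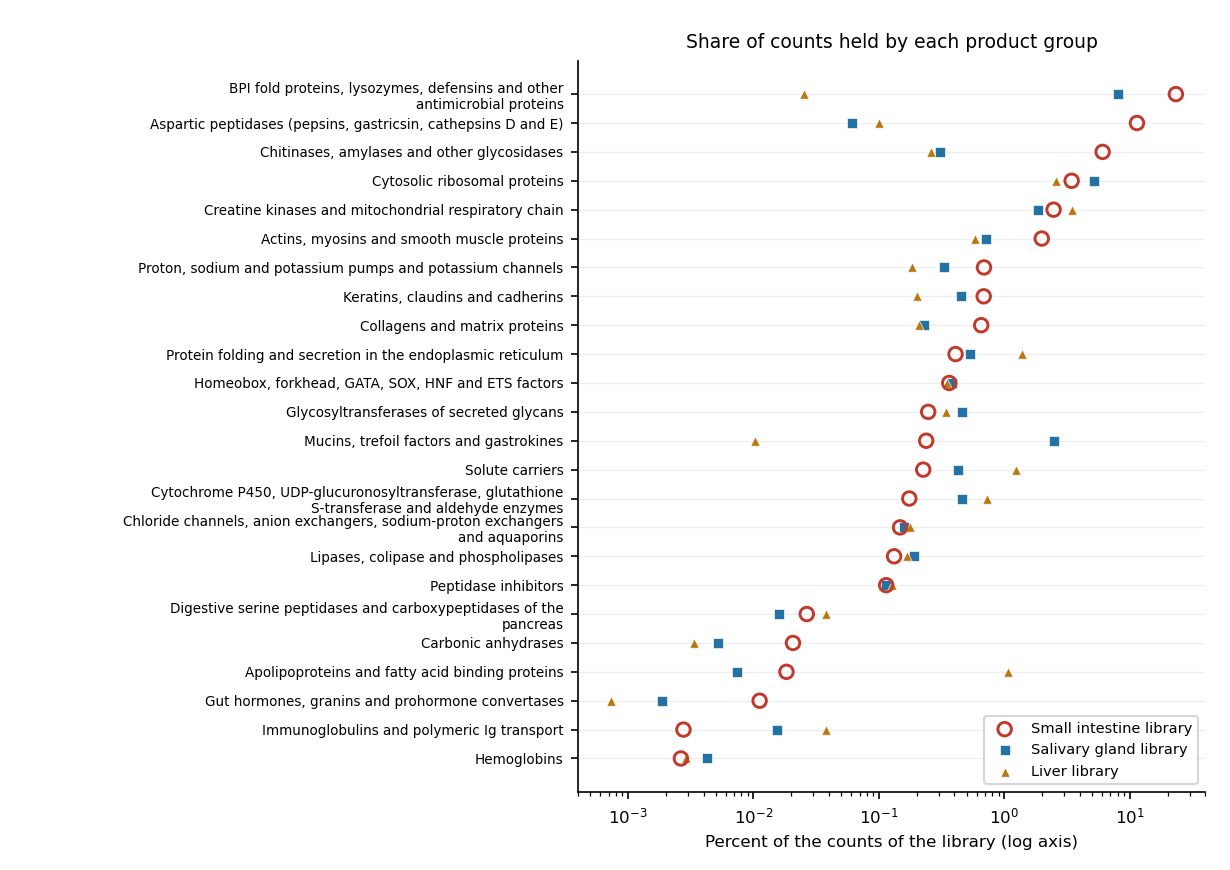
Percent of the counts of each library (horizontal, log axis) held by 24 groups of gene products, with open circles for the library labelled small intestine, squares for the salivary gland and triangles for the liver library, 1 library per tissue. Aspartic peptidases held 11.4% in the library labelled small intestine and at most 0.1004% in the other 2, whereas ribosomal proteins lay within 2.57 to 5.15% in all 3.

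Squamous epithelium gave the next group of genes. Of 12 stratified squamous genes tested 9 were higher and 1 lower (a model of KRT10, 10.1 against 21.6 and 20.1), with a median score of 3.07. The shares over all genes tested were 8.54% higher and 24.2% lower. A wider list of keratinised epithelium, put together after its values were seen, had 48 of 67 genes tested higher and 2 lower, with a median of 2.86, or 3.69 when genes at 0 counts in both other libraries are set to their limit. This list was chosen on these libraries and is not independent of its direction. Keratins 4 and 13, the pair of the suprabasal layers of non-keratinised oral and oesophageal epithelium, led the group. Keratin 4 (KRT4, gene14291) had an FPKM of 825 in the library labelled small intestine, 0.638 in salivary glands and 0 in liver, and held 0.174% of the counts (95% Wilson interval 0.172 to 0.177%). Keratin 13 (KRT13, gene5493) had 729, 0.560 and 0. Keratins 6 and 16, which are made in the mouth, in palm and sole skin and in healing epidermis, were also high. Keratin 6 was annotated on 2 models with FPKM of 351 and 167 and 0 counts elsewhere, at least 139-fold and 35.8-fold higher by count share, and keratin 16 (KRT16) had 209.6 against 0.191 and 0. The basal layer keratins KRT5 and KRT14 were shared with the salivary gland library, with 88.2 against 55.01 and 77.1 against 34.9, and were at 0 in the liver library. TP63, the factor of basal cells, had 1.78 against 0.624 and 0.0166. Keratin 1 of the epidermis had an FPKM of 5.62 in the library labelled small intestine and 0 counts elsewhere.

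The products of the horny layer were present along with these keratins. The cornified envelope precursor involucrin (IVL) had an FPKM of 25.2 with 0 counts elsewhere, at least 90.9-fold higher by count share. KRTDAP, a secreted protein of differentiating keratinocytes, had 226 with 0 counts elsewhere, at least 158-fold higher. Cystatin-A (CSTA), a peptidase inhibitor of the envelope, had 194 against 0 and 0.207. The adhesion proteins of the horny layer followed: corneodesmosin (CDSN) had 137.9 against 0.285 and 0, desmoglein-1 (DSG1) had 10.4 against 0.0583 and 0, and desmocollin-1 (DSC1) had 10.1 against 0.0184 and 0. Peptidases that release the outermost cells were there too, with 39.05 for kallikrein-5 (KLK5), 23.5 for kallikrein-7 (KLK7) and 110.1 for the aspartic peptidase ASPRV1. Filaggrin (FLG), the keratin-binding protein of granules in keratinised cells, was annotated on 3 models with FPKM of 13.003, 5.13 and 1.67. The first and second of these overlap on opposite strands and may share fragments. Filaggrin-2 had 6.83, the keratinocyte proline-rich protein KPRP 25.9 and caspase-14, the peptidase of the horny layer, 16.99. No gene was annotated as loricrin, SPRR3 or cornulin. The junction proteins desmoplakin (38.8 against 29.5) and plakoglobin (54.9 against 36.4) did not reach a score of 1, and desmocollin-2, of simple and lower layers, was lower at 7.27 against 16.3. The genes in this paragraph beyond the 25 highest scores were named after their values were seen.

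Keratin genes lie in clusters in mammals, and levels were followed along the scaffolds that carry them. On the type II keratin scaffold NW_016537779.1 (16575 to 346724) KRT5, KRT1, KRT3, KRT4 and KRT78 had FPKM of 88.2, 5.62, 99.2, 825 and 20.5, while a second KRT3 model (gene14287) and the hair and sheath keratins KRT71 and KRT72 between them were at 0 in all 3 libraries and KRT79 had 0 in the library labelled small intestine. At the end of the same scaffold, the pair of simple epithelia, KRT8 and KRT18, had 66.5 and 78.9, below the liver library (266 and 185). KRT19, the keratin of ducts and intestine, had 10.9 against 19.8 and 0.559. On the type I scaffold NW_016534927.1, KRT14, KRT16 and KRT17 had 77.1, 210 and 23.5. The gastrin gene lies on that scaffold too and was at 0 counts in all 3 libraries. A stretch of scaffold NW_016534417.1 holds KRTDAP, dermokine and suprabasin (226, 34.7 and 148) at 460549 to 492239 and, after the testis-type GAPDH gene, ATP4A at 509499 to 522524. Genes of the squamous and parietal lists were both high within that stretch. Hepcidin, the iron hormone of the liver, lies upstream on the same scaffold with 3.07 against 30304 in the liver library.

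**Figure D4:**
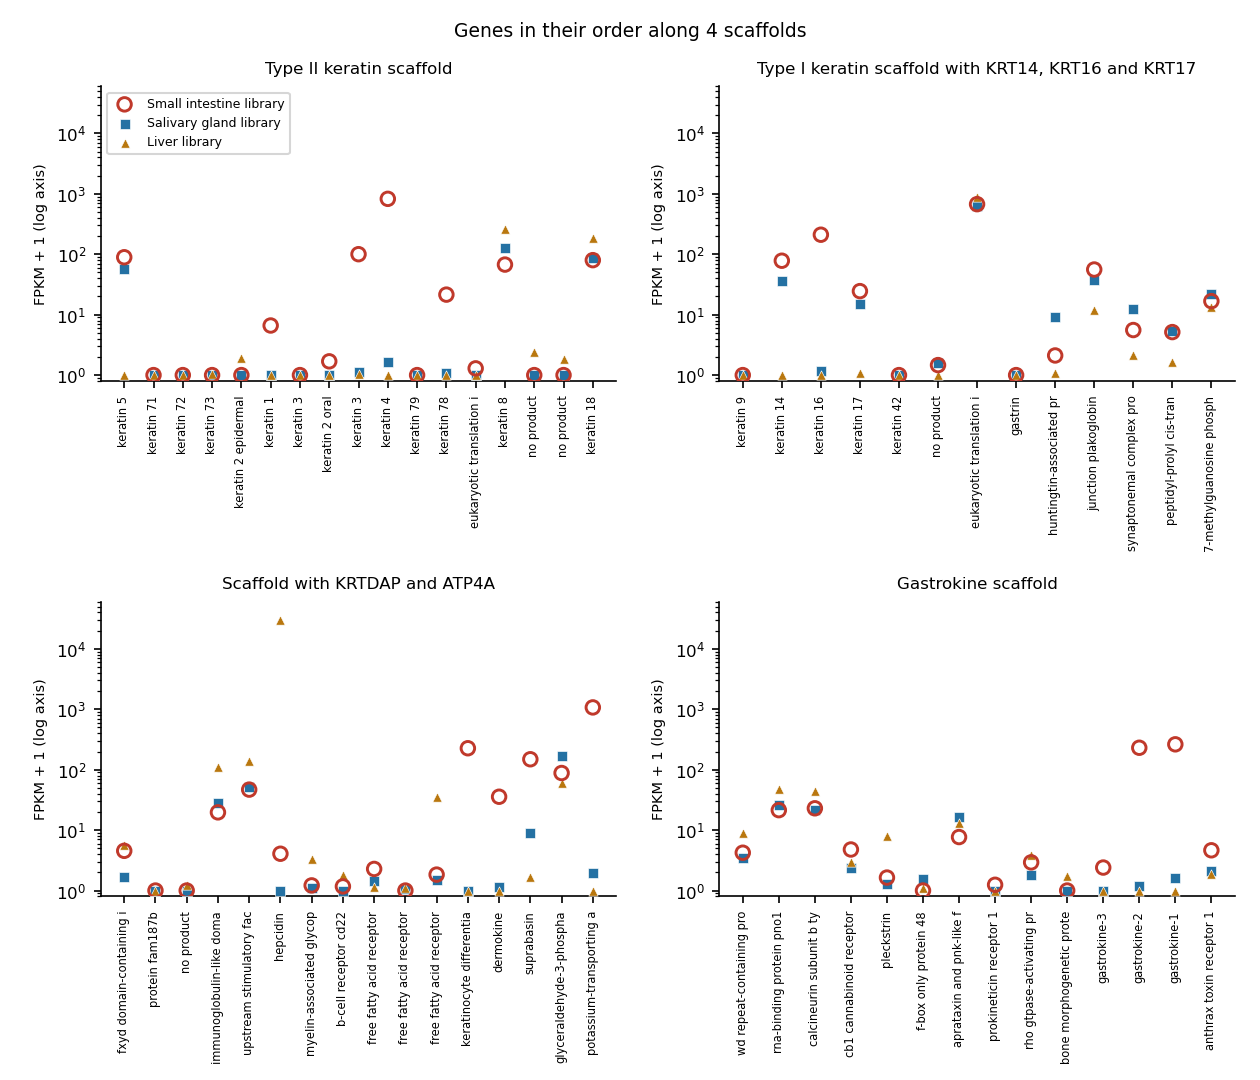
FPKM + 1 (vertical, log axes) of genes in their order along 4 scaffolds, with open circles for the library labelled small intestine, squares for the salivary gland and triangles for the liver library. High and silent genes alternate on the keratin scaffolds (KRT4 at 825, KRT79 at 0), and KRTDAP, dermokine, suprabasin and ATP4A are high in the library labelled small intestine within 1 stretch.

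Smooth muscle genes, which make up the contractile wall of the gut, were also high. Of 19 smooth muscle genes tested 16 were higher and 0 lower, with a median score of 2.99. Desmin (DES), the intermediate filament of muscle, had an FPKM of 754 against 9.86 and 0.205. Smooth muscle myosin heavy chain (MYH11) had 638 against 41.1 and 0.299, calponin-1 (CNN1) 623 against 32.4 and 0.346, and transgelin (TAGLN), an actin-binding protein, 1023 against 156 and 26.7. The salivary gland library also held these transcripts, at FPKM between 9.86 and 156 for these 4 genes. Aortic smooth muscle actin ACTA2, which vessels and myoepithelial cells share, was nearly equal, with 130.1 against 110.6. Cardiac troponin T, with 70.1 against 0.159 and 0.118, the muscle protein FHL1, with 503 against 12.4 and 24.5, and the receptor MRGPRF, with 215 against 1.44 and 0.218, were named after their values were seen. Skeletal muscle genes had 1 of 8 genes tested higher and 2 lower (median -0.06), near the 8.54% and 24.2% of all genes tested. Skeletal actin ACTA1 had 0.870 against 26.8 in the salivary gland library.

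Transcription factors that pattern the gut tube and its mesenchyme were described next. BARX1, a homeobox factor of stomach mesenchyme, was annotated on 2 new gene models with FPKM of 63.5 and 10.2, against at most 0.246 elsewhere. These models overlap on opposite strands and may be 1 locus. NKX3-2, which is expressed in the stomach wall, had 24.4 against 0.0292 and 0. The factors FOXF1 and FOXF2 of gut mesenchyme had 52.7 and 29.8 against at most 2.42 and 0 counts, and HAND2 had 55.05 against 0.292 and 6.68. The factor NKX2-3 of intestinal mesenchyme was at 0 counts, as were NKX2-5 and the hindgut factors HOXA13 and HOXD13. GATA4 and GATA6 had 33.5 and 32.6, and GATA5 had 15.3 against 0 and 0.0231. SOX2, a factor of the foregut and stomach, had 4.63 against 0.0508 and 0. Which cells of the library made these factors cannot be told from bulk RNA. The zinc finger factor MECOM had 30.6 against 0.752 and 0.343. Of 13 stomach regulators tested 8 were higher and 3 lower, with a median of 1.61. FOXA2 and FOXA3, the factors of endoderm and liver, were lower at 5.76 against 20.9 and 8.67 against 80.7. When members were found by gene symbol instead of product name, BARX1, FOXF1, FOXF2, MECOM and 5 others had no gene and the median was -0.10. Of 8 intestinal regulators tested 1 was higher and 3 lower, with a median of -0.13, beside 8.54% higher and 24.2% lower over all genes tested. HNF4A, a factor of enterocytes and hepatocytes, had 1.81 against 22.2 in the liver library. The list of mesenchymal and regional factors, chosen after values were seen, had 10 of 14 genes tested higher, 2 lower and a median of 2.19.

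**Figure D5:**
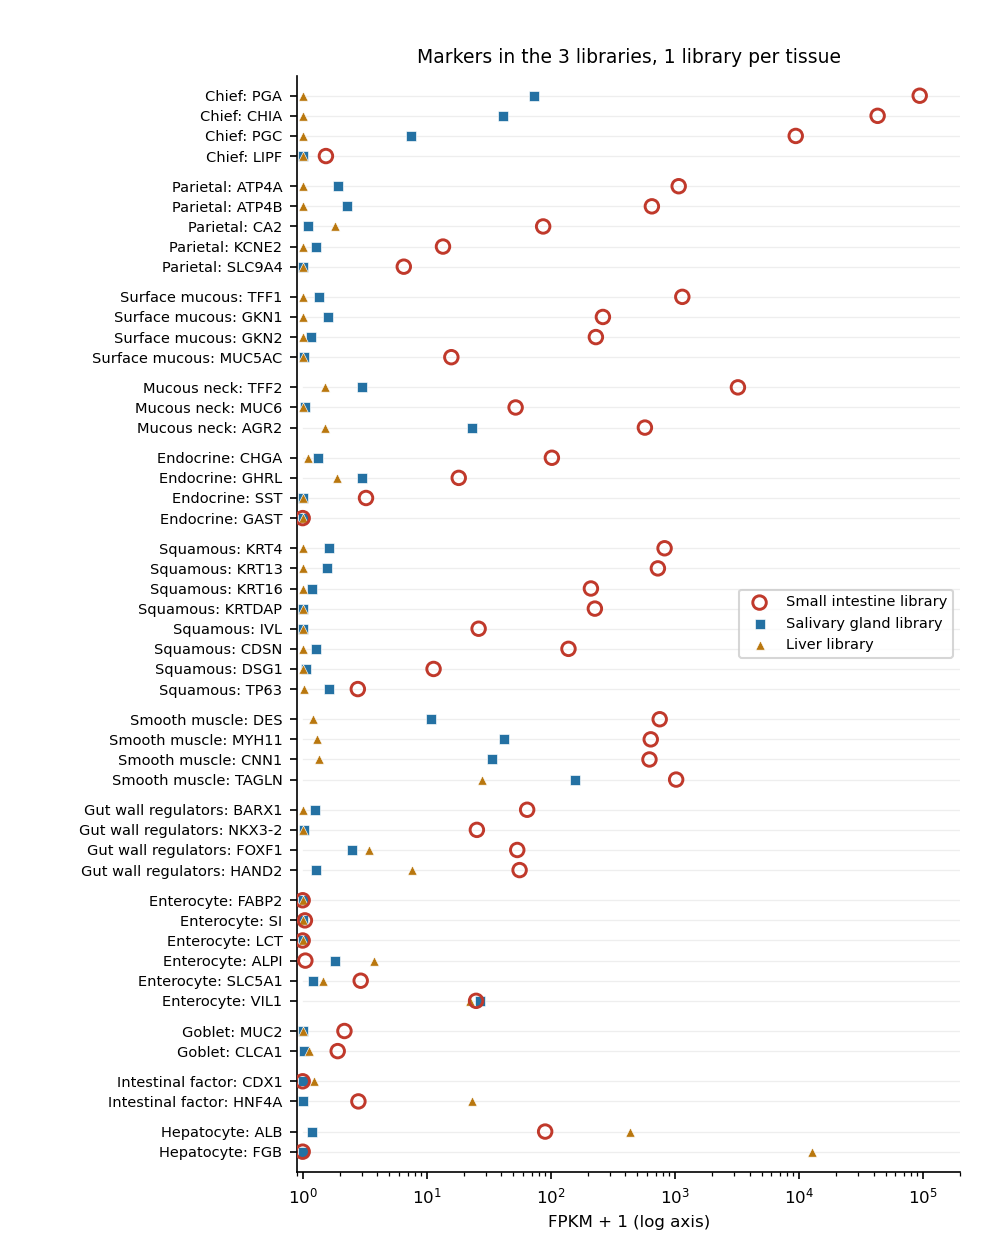
FPKM + 1 (horizontal, log axis) of 48 markers in the library labelled small intestine (open circles), the salivary gland library (squares) and the liver library (triangles), 1 library per tissue and overlapping symbols near 1. Where a marker has several gene models the highest is plotted, most chief, parietal, mucous, squamous and smooth muscle markers lie farther right in the library labelled small intestine (LIPF had 5 counts), and FABP2, LCT, CDX1 and gastrin are at 0 there.

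Endocrine cells were traced by chromogranin A (CHGA), a granule protein, with an FPKM of 101 against 0.329 and 0.0956. Of 37 endocrine genes 16 were tested, of which 8 were higher and 2 lower, with a median score of 0.96. Ghrelin (GHRL), the appetite hormone of the stomach, had 17.1 against 2.01 and 0.901. Somatostatin (SST), which restrains acid secretion, had 9 counts. Gastrin (GAST), GIP, secretin (SCT), neurotensin (NTS) and INSL5, hormones of the antrum, duodenum, small intestine and colon, were at 0 counts in the library labelled small intestine, and so were the factors NEUROG3, PAX4 and FEV. Histidine decarboxylase (HDC), the histamine-making enzyme, had FPKM of 16.9 and 6.44 on 2 models, against 21.6 and 15.4 in the liver library, so its level did not set this library apart. Tuft cell genes were few, with 4 of 14 genes tested higher, 5 lower and a median of 0.16. The shares over all genes tested were 8.54% higher and 24.2% lower. PTGS1 led the tuft cell genes with 15.3 against 3.74 and 3.19.

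Nerve and connective tissue genes were mixed, set beside 8.54% higher and 24.2% lower over all genes tested. Of 14 enteric neuron genes tested 8 were higher and 2 lower, with a median of 1.24. The neuropeptides NPY (55.9 against 2.26 and 4.38), VIP (11.9 with 0 counts elsewhere) and galanin (GAL, 11.4 against 0.223 and 0) had scores of at least 3, and the list of neuropeptides and cholinergic genes had 4 of 9 genes tested higher and 0 lower. NPY and that list were named after values were seen. Glial genes had 1 of 7 higher and 2 lower (median 0.53), and the genes of interstitial cells of Cajal, the pacemaker cells of the gut, had 2 of 5 higher and 1 lower (median 0.48), with 2.87 against 1.78 and 0.0310 for KIT. Of 25 fibroblast genes tested 12 were higher and 2 lower (median 0.46). Matrix Gla protein (MGP) had 375 against 135 and 11.1. Collagen genes of this list had larger scores: COL6A1 had 130.3 and 107.5 on 2 models, COL3A1 88.9 against 3.53 and 0.819, and COL1A1 50.8 against 2.64 and 0.202. Among all collagens and matrix proteins 34 of 93 genes tested (36.6%) were higher, and the basement membrane collagen COL4A1 had 196. Endothelial genes had 1 of 15 higher, 3 lower and a median of -0.13.

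Of 24 enterocyte genes tested 1 was higher and 10 were lower (8.54% of all genes tested were higher and 24.2% lower), with a median score of -0.65. The higher gene was SLC5A1, the sodium-glucose transporter, with an FPKM of 1.94 against 0.221 and 0.457. Villin (VIL1), which bundles actin in microvilli, was at 23.995, 25.7 and 21.2 in the 3 libraries, and DPP4, a brush border peptidase, at 3.06, 0.282 and 2.63. FABP1, the fatty acid binding protein of liver and intestine, was at 0 counts in the liver library too. The fructose transporter SLC2A5, the bile acid transporter SLC10A2 and the bile acid binding protein FABP6 were at 0 counts in the library labelled small intestine. Goblet cell genes had 2 of 8 higher and 2 lower (median 0.27), namely ZG16 with 2.80 and MUC2, and the goblet cell factor ATOH1 was at 0 counts. Of 6 Paneth cell genes tested 2 were higher and 2 lower (median -0.75), and the 2 higher were models of lysozyme C. Crypt stem cell genes had 1 of 8 higher and 1 lower (median 0.16), with 0.490 for LGR5 and 0.0440 for OLFM4.

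Genes of other digestive glands were looked for as well, beside 8.54% higher and 24.2% lower over all genes tested. Of 10 pancreatic acinar genes tested 6 were higher and 1 lower, with a median of 1.36. Phospholipase A2 (PLA2G1B) was the most abundant, with an FPKM of 457 against 0.513 and 0. Chymotrypsin-C (CTRC), a digestive peptidase, had 5.71 with 0 counts elsewhere. The trypsin inhibitor SPINK1 had 25.6 against 0 and 11.6, and CTRB1 (gene8082) and CELA3B, a chymotrypsinogen and an elastase, had 5.28 and 2.52 against at most 0.131 and 0.129. GP2, a granule membrane protein, was not called, with 80.1 against 51.9 in the salivary gland library. Other acinar products had few counts: pancreatic lipase (PNLIP) had 7 counts, carboxypeptidase A1 (CPA1) 7 and anionic trypsin (PRSS2) 2, and colipase (CLPS), CUZD1 and the acinar factor PTF1A had 0. Of 12 salivary gland genes tested 5 were higher and 5 lower (median 0.00), with TCN1 and 3 models of DMBT1 (53.1, 49.7 and 21.0) among the higher and lactotransferrin (5.71 against 59.1) among the lower. Hepatocyte genes had 0 of 21 higher and 20 lower, with a median of -7.12, or -8.67 with genes at 0 counts set to their limit. Albumin (ALB) was the highest of them in the library labelled small intestine, with 89.1, 0.194 and 434 in the 3 libraries. The fibrinogen chains FGB and FGG were at 0 counts in the library labelled small intestine, and the chain FGA had 2 counts.

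Immune genes were mostly lower here than in the liver library. Over all genes tested, the shares were 8.54% higher and 24.2% lower. Of 15 T and NK cell genes tested 0 were higher and 11 lower (median -1.37), and CD3D, CD3G and CD8A were at 0 counts. Of 17 macrophage genes tested 2 were higher and 12 lower (median -2.84), and the 2 higher were lysozyme models that other lists share. Plasma and B cell genes had 1 of 9 higher and 5 lower (median -1.09), with 1.67 for the joining chain (JCHAIN) against 10.1 and 30.1. Of 10 neutrophil genes tested 1 was higher and 6 lower (median -2.04). That gene was S100A8, which keratinocytes also make, with 354 against 13.8 and 105, whereas myeloperoxidase (MPO) and elastase (ELANE) were at 0 counts. Immunoglobulin products had 1 of 34 genes tested higher and 29 lower. Mast cell and eosinophil genes had 2 of 5 higher and 1 lower, and tryptase (TPSAB1) had 6.23 against 0.496 and 0.607. Erythroid genes had 1 of 2 higher and 0 lower, and cell division genes 1 of 13 higher and 1 lower (median -0.27). Against the salivary gland library alone, the medians of the T and NK cell list and of the macrophage list were 0.01 and 0.22.

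Among genes with an FPKM of at least 1 in the library labelled small intestine, the lowest 10 scores included hepcidin at -12.86, retinol-binding protein 4 at -9.83 (1.19 against 1987 in the liver library), alpha-1-acid glycoprotein at -9.59 and complement C3 at -9.41. Others were highest in the salivary gland library, with scores of -9.20 for an odorant-binding protein (11.8 against 7480), -9.09 for latherin and -9.08 for an allergen of the lipocalin family (10.2 against 6076). Haptoglobin (gene25455) had 51.2 against 25755 in the liver library. The tight junction proteins claudin-3 and claudin-8 were also low, with 2.15 against 373 and 0.192 against 99.2 in the salivary gland library. Of the 4361 lower genes, 3030 were highest in the liver library and 1331 in the salivary gland library, and 561 had 0 counts in the library labelled small intestine.

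The levels of the highest genes in the salivary gland library were a small part of those in the library labelled small intestine. Among the 25 highest scores, 11 genes had at least 10 counts in the salivary gland library, and their FPKM there was 0.0630% to 0.195% of the FPKM in the library labelled small intestine, with a median of 0.0772%. Keratin 4 and keratin 13 lay at 0.0772% and 0.0768%, and pepsin A at 0.0762%. The liver library had at most 6 counts on any of these 11 genes. Whether fragments passed between libraries was not tested. The count minimum of 10 was crossed by genes of all scores: the 206 genes whose highest count was exactly 10 had scores from -2.96 to 3.67, with 14 higher and 34 lower, and the 168 genes with a highest count of 9, just outside, had scores from -2.71 to 3.01.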

How the data were processed

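After trimming, the authors mapped reads to the M. javanica genome by TopHat2, ignoring strand, and Cufflinks assembled additional (new) genes where no gene was annotated. The deposited estimated counts are whole numbers of fragments per gene that were not scaled between libraries. Per the methods, FPKM was made by the authors from fragments, transcript length and mapped fragments. A deposited score, the count times 1 factor per library, was read only to check the counts: they exceed the fractional estimates behind it by over 0.5 for 6123, 6142 and 6342 genes. The methods name RSEM for transcript levels in FPKM. The genome build is not given in the sources used here, and positions are those of the deposited scaffolds. Counts summed to 10158924 (small intestine), 8318686 (salivary glands) and 14568778 (liver). Intervals (95% Wilson), limits for a count of 0 (3 counts per library) and at-least folds reflect counting error alone.

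All genes reaching a count of 10 in any library were scored as log2 of FPKM + 1 against the higher other library. Products are the NR names of the deposited annotation, list members were matched to them, and 24 product groups were found by Swiss-Prot or NR words. Members and lists were chosen with earlier results of these data known. Matching by NR name, 3 of 33 lists and the final group words were set after values were seen, since Swiss-Prot symbols named paralogs. Genes considered for naming were the 25 with the highest score and the 25 with the highest FPKM. The 10 lowest scores at an FPKM of at least 1 were considered too. From lists they were every member up to 8 genes, otherwise the 6 highest and those at 0 counts. From each group they were 3 by score and 2 by FPKM. Not all of these are named. Among the 25 highest scores, a model annotated as pol protein (FPKM 383 against 0.183 and 0, score 8.34) was left out above. Mitochondrial and ribosomal protein genes among the 25 highest FPKM were left out as well. One higher member of the pancreatic list is not reported here. Others, as the members of lists at lower FPKM, the genes along the scaffolds and the lower members, were named after their values were seen. The scoring code was run on simulated data. No outcome of that run is given, so it cannot be taken as a check of the score with 1 added to FPKM. Alternatives were pseudocounts of 0.1 and 10, count minimums of 1 and 50, TPM, TMM (edgeR 4.0.16) and DESeq2 1.42.0 size factors on rounded counts, an equal upper quartile, totals without the 10 highest genes, each other library alone, and no new genes. Python 3.11.15, pandas 2.3.3, numpy 2.4.6, matplotlib 3.10.9 and R 4.3.3 were used.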

Additional observations from a re-analysis of the deposited data

How the results depend on the processing

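With 1 library per tissue, no library could be left out within a tissue, and depth limits genes of few counts. No paired analysis was possible because each tissue has 1 library and no result comes from a test. A pseudocount of 0.1 gave 606 genes with a score of at least 3. With 10 there were 443 higher genes, 56 of them at 3 or more, 1449 lower genes, 1 product group (3 as reported) and 5 lists (9 of the 30 first drawn up as reported) with a median of at least 1. A count minimum of 1 also left 1 such group, since it admits genes at few counts. Against the salivary gland library alone 2430 genes were higher and 1647 lower. There the signs turned for hepcidin (2.02), retinol-binding protein 4 (1.13), alpha-1-acid glycoprotein (0.078), haptoglobin (2.83), the apolipoprotein group (0.36), T and NK cells (0.012) and macrophages (0.22), because the liver no longer entered. Against the liver library alone 3060 genes were higher, 492 at 3 or more, and 5 groups and 16 lists had a median of at least 1. There the signs turned for the odorant-binding protein (3.67), latherin (6.86), the lipocalin allergen (3.49), gene21524 (5.03) and Manis_javanica_newGene_4003 (4.39), because the salivary glands no longer entered. Members by symbol, an alternative added after seeing the data, gave the stomach regulators a median of -0.10. Of the alternative values for lists, groups and named genes, 378, 267 and 405 stayed in the same class (at least 1, -1 or less, or between). Their size could still change within it. Another 48, 20 and 1 changed class without a called value turning its sign.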
